A study of Homo sapiens with 32 samples.

Results

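Cap analysis of gene expression (CAGE) reads the capped 5′ ends of RNA, so each tag marks a base where transcription started. In the table of LNCaP and BicR libraries, 172 of 13294 start sites (1.29%) were at least 2 times higher in BicR than in LNCaP and reached a mean of at least 10 RPM (tags scaled to a common library total) in BicR. The ratio compared the mean of BicR before treatment, with ethanol at 6 h and with ethanol at 24 h against the mean of the same 3 LNCaP libraries. Those 6 libraries chose the sites, so their values are given here as a description and carry no test.

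LNCaP is an androgen-responsive human prostate cancer line; the labels name BicR as a prostate cancer line grown alongside it and do not spell the name out. All cells spent 3 days in 2.5% charcoal-stripped serum, which is poor in steroid hormones. Each line then gave 1 library before treatment and 1 library at 6 h and at 24 h for each of 4 arms: ethanol as the vehicle, 10 nM dihydrotestosterone (DHT), 1 µM bicalutamide, and DHT with bicalutamide. A separate LNCaP series received the synthetic androgen R1881 and was read at 0, 3, 6, 12, 18, 48 and 72 h with 2 libraries per time and no vehicle library after 0 h; the sample labels give 1 nM, the shared protocol 10 nM for 24 h. The labels do not say whether libraries came from separate cultures, so p-values measure only the spread between these libraries. With 1 library per line, arm and time, the 6 h and 24 h libraries of an arm served as its replicates.

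The androgen receptor is a transcription factor that binds DNA after an androgen such as DHT or R1881 has bound it. Bicalutamide occupies the same pocket and is used as an antagonist, and prostate cancer cells that keep growing on antagonists are a long-standing model of treatment resistance. In luminal prostate cells the receptor drives a set of secretory and differentiation genes, among them members of the kallikrein family on the long arm of chromosome 19. The deposited tables pair no site with a gene, so sites are given by hg19 chromosome, position and strand, no gene was assigned to them, and the labelled cell type was not checked against marker genes.

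Depth was 4139807 to 7753336 tags per library in the LNCaP and BicR table, where 3 tags were worth 0.326 to 0.601 RPM. The R1881 libraries were shallower, at 128463 to 3837493 tags, and 3 tags were worth up to 19.4 RPM there. The BicR library with DHT and bicalutamide at 6 h stood apart: 61 sites reached 10 RPM in it while staying under 1 RPM in each of the other 17 libraries, and no other library had such a site. None of the 172 sites was among them, but BicR was above LNCaP at only 146 of the 172 sites in that pair. The other pairs that did not choose the sites stood at 160 to 171. The pairs that chose them stood at 171 or 172, largely by that choice. Several totals over the 172 sites that rest on this library are also given without it. Other results that rest on it, such as values of single sites and lists shared by both lines, are given only with it.

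Across the 172 sites the BicR mean ran from 10.1 to 1570.2 RPM with a median of 25.8 RPM, and the LNCaP mean from 0 to 771 RPM with a median of 9.01 RPM. Most sites lay close above the ratio threshold: 103 had a ratio under 2.5, 135 under 3, and 20 a ratio of at least 4. The 2 sites just inside the ratio threshold were on the plus strands of chromosome 2 at 97001538 (ratio 2.002) and chromosome 8 at 27632070 (2.003), and the 2 just outside on the plus strands of chromosome 5 at 111093547 (1.993) and chromosome 2 at 209119955 (1.998). At the level threshold, the plus strand of chromosome 11 at 986896 and the minus strand of chromosome 1 at 2342274 (BicR means of 10.1 and 10.1 RPM) were just inside. Just outside were the plus strands of chromosome 16 at 4524737 (9.97 RPM) and chromosome 21 at 41160556 (9.98 RPM). In 159 of the 172 sites all 3 BicR libraries lay above all 3 LNCaP libraries, which held for 14.9% of all sites; this follows largely from the choice.

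The sites formed 2 contrasting ends, a few abundant starts present in both lines and a few starts nearly absent from LNCaP. The most abundant was on the minus strand of chromosome 6 at 26032326. In BicR it gave 1742 RPM before treatment and 1459 and 1509 RPM with ethanol at 6 h and 24 h, and in LNCaP 983 RPM before treatment and 849.7 and 481 RPM with ethanol. Each of these 3 BicR libraries was above each of these 3 LNCaP libraries, yet LNCaP itself held 771 ± 260.1 RPM (SD, n = 3). The next were the plus strands of chromosome 6 at 27775950 (931 ± 97.7 RPM in BicR against 388 ± 125 in LNCaP) and at 27100821 (819.7 ± 156 against 394 ± 128). The plus strand of chromosome 9 at 80912042 followed with 662 ± 318 against 239.9 ± 68.6 RPM, with 375 RPM before treatment and 1004 RPM after 24 h of ethanol. The plus strands of chromosome 10 at 62538235 (593 ± 105 against 230.2 ± 50.4 RPM) and chromosome 6 at 26199743 (514 ± 49.5 against 245 ± 63.0 RPM) completed the 6 most abundant, of which 4 lay on the short arm of chromosome 6.

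At the other end, 5 sites had 0 tags in all 3 LNCaP libraries of the rule. The minus strand of chromosome 10 at 30024275 gave 93.2 RPM before treatment and 87.8 and 74.2 RPM with ethanol at 6 h and 24 h in BicR, at least 184-fold higher than LNCaP when each LNCaP library is set to 3 tags. The same bound was at least 66.4-fold for the plus strand of chromosome 21 at 39465957, 44.5-fold for the plus strand of chromosome 1 at 223919302, 32.3-fold for the minus strand of chromosome 10 at 13726645 and 29.7-fold for the minus strand of chromosome 16 at 87020240. A sixth, the minus strand of chromosome 13 at 80055109, had 35.7 ± 14.9 RPM in BicR and 0.553 ± 0.0444 RPM in LNCaP, where it held 3 or 4 tags per library. These sites stayed near 0 in the 6 LNCaP libraries that the rule did not use: 16, 4, 1, 2 and 5 tags were counted over all 9 LNCaP libraries at the 5 sites in the order above, of which 15, 3, 0, 2 and 4 tags fell in the library with bicalutamide at 6 h. The 5 sites read 4.01 to 97.6 RPM in the 6 BicR libraries not used by the rule, with no overlap between the lines. None of these 6 sites fell in a cluster of the R1881 table, which lists LNCaP start sites; 13 of the 20 sites with a ratio of at least 4 had no cluster there by name or position (65%), against 26 of the other 152 (17.1%).

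The difference between the lines was then read in the 12 libraries with DHT, bicalutamide or both, none of which chose the sites. BicR was higher at 126 of the 172 sites in edgeR's quasi-likelihood test (adjusted p under 0.05), where 11.9% of all 13213 sites tested were called higher and 12.7% lower. No member was called lower, and 169 had a log2 difference above 0 (98.3%, against 51.4% of all sites). The median log2 difference was 0.93 against 0.01 over all sites. Of the 20 sites with a ratio of at least 4, 17 were called. All 6 BicR libraries lay above all 6 LNCaP libraries at 65 sites, against 4.99% of all sites. The count of 126 fell to 72 without the LNCaP library with DHT at 6 h and to 76 without the one with both agents at 6 h; without the BicR library that stood apart it was 125.

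**Figure D1:**
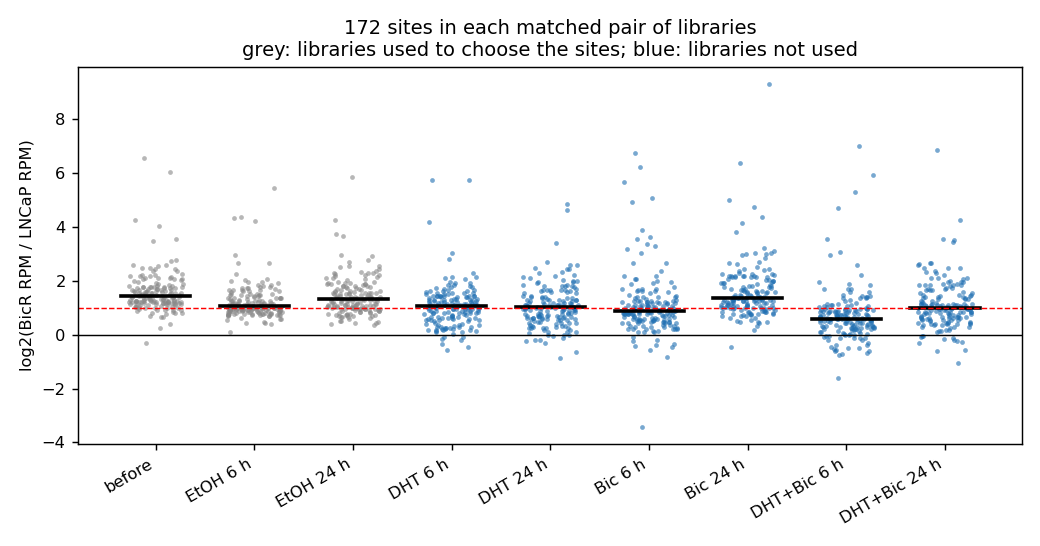
Each point is 1 of the 172 sites; the vertical axis is the log2 ratio of BicR RPM to LNCaP RPM within 1 matched pair of libraries, the black bar is the median over all 172 sites, and the dashed line marks a ratio of 2. Sites with 0 tags in the LNCaP library (1 to 6 per pair) count toward the median and are not drawn. The medians of the 6 pairs that did not choose the sites (blue) run from 1.51-fold for DHT with bicalutamide at 6 h to 2.60-fold for bicalutamide at 24 h.

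Within single pairs of unused libraries the median ratio was 2.10 with DHT at 6 h, 2.03 with DHT at 24 h, 1.84 with bicalutamide at 6 h, 2.60 with bicalutamide at 24 h, 1.51 with both at 6 h and 2.003 with both at 24 h. Over all sites the median ratio in those pairs ran from 0.845 with bicalutamide at 6 h to 1.07 with bicalutamide at 24 h. These are ratios of RPM, from which such shifts of a whole pair were not removed. The share of the 172 sites at 2-fold or more ranged from 23.3% in the pair with both agents at 6 h to 76.2% with bicalutamide at 24 h, against 1.88 to 5.29% of all sites in those 6 pairs. Among the sites not called was the minus strand of chromosome 1 at 51887761, singled out after its values were seen, with the lowest log2 difference of -0.48 (SE 0.49, adjusted p = 0.504). It is one of a group that rose with time, described below.

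The largest fitted differences belonged to sites close to 0 in LNCaP, where a fitted fold depends on the prior count and is no bound. At more moderate sites the SD over the unused libraries of a line mixes arms and times, so it is not a spread between replicates. On chromosome 5, 3 minus-strand sites between 106715246 and 106716278, the only sites of the table in that stretch, gave summed means of 74.4 RPM in BicR and 22.4 RPM in LNCaP. In the unused libraries the one at 106715246 held 30.9 ± 7.43 RPM in BicR and 10.9 ± 1.39 RPM in LNCaP (SD, n = 6), a log2 difference of 1.35 (SE 0.22, adjusted p = 0.00227) in edgeR's test. The plus strand of chromosome 1 at 207495022, singled out after its values were seen, was uneven between libraries. It read 597 RPM in BicR with both agents at 6 h and 70.4 RPM in LNCaP with bicalutamide at 6 h, against at most 47.6 RPM in any other BicR library and 22.9 RPM in any other LNCaP library.

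The sites were spread over most chromosomes. Chromosome 2 held 20 (11.6% of the 172, against 6.43% of all sites), chromosome 6 held 16 (9.30% against 4.94%) and chromosome 12 held 13 (7.56% against 5.19%). Chromosome 1, with the most sites in the table, held 12 (6.98% against 10.0%), chromosome 16 held 2 (1.16% against 4.57%), and the 75 sites of chromosome Y and 49 of the mitochondrial genome included none. Relative to its own size, chromosome 18 had the highest share, with 7 of its 212 sites (3.30%) against 1.29% over the table. Both strands were used alike, 83 plus and 89 minus. These shares are counts without a test, and copy number of the chromosomes in the lines was not measured.

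**Figure D2:**
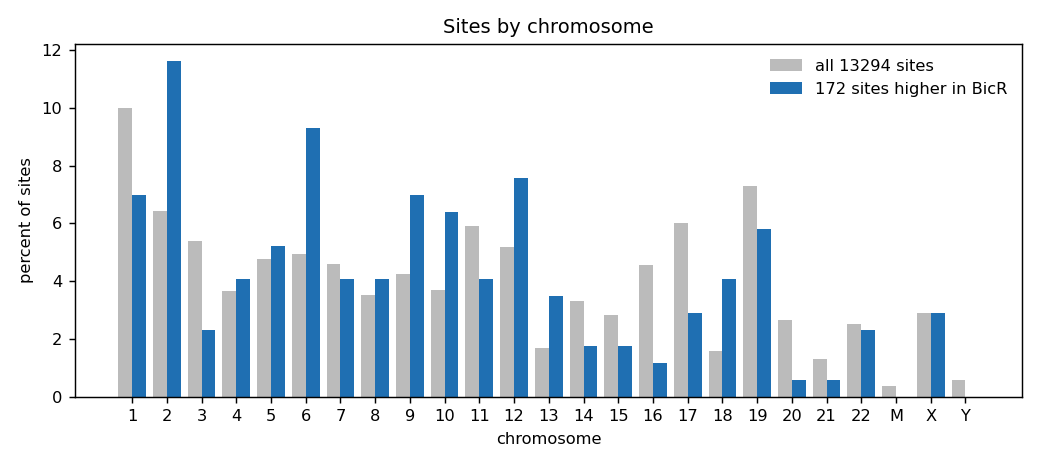
Bars give, for each chromosome, the percent of all 13294 sites (grey) and of the 172 sites higher in BicR (blue). Chromosome 2 stands at 11.6% against 6.43% and chromosome 6 at 9.30% against 4.94%, while chromosome 1 stands at 6.98% against 10.0%.

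Most sites stood alone. When sites on 1 strand were joined across gaps of up to 10000 bp, the 172 fell into 164 neighbourhoods, of which 6 held more than 1 site and 158 held a single one. The minus strand of chromosome 8 from 23537636 to 23540447 and the minus strand of chromosome 5 described above held 3 each. The other 4 held 2 sites each: the minus strand of chromosome 6 at 26032326 and 26033843, its plus strand at 27775950 and 27782799, the minus strand of chromosome 18 at 75697589 and 75705671, and the minus strand of chromosome 22 at 36902531 and 36902832. Both divergent pairs, with a minus-strand start to the left of a plus-strand start within 1000 bp, lay on chromosome 6. One joined 27775706 and 27775950, 244 bp apart, and the other 27100573 and 27100821, 248 bp apart.

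Chromosome 6 between 26 and 28 Mb, a window set after the positions were seen, held 12 of the 16 sites of that chromosome. The short arm of chromosome 6 is known for a large cluster of replication-dependent histone genes, which are transcribed mainly while cells copy their DNA; whether these starts belong to such genes was not determined. The 12 sites were 21.8% of the 55 sites of the window, and their BicR means of 61.7 to 1570.2 RPM faced LNCaP means of 21.5 to 771 RPM. Their summed mean was 5537 RPM in BicR and 2519 RPM in LNCaP. All 12 were called higher in BicR in the unused libraries, with log2 differences of 0.93 to 1.71. The rest of the window leaned the same way: of its 42 other sites tested, 20 were called higher in BicR and 4 lower in that fit, and their median log2 difference was 0.35.

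The same 12 sites fell with time under treatment. Comparing 24 h with 6 h over the 3 arms with DHT, bicalutamide or both was added after the data were seen, and it does not use the libraries that chose the sites. In BicR all 12 were called lower at 24 h, with log2 changes of -2.23 to -0.85. In LNCaP all 12 had changes below 0, from -1.64 to -0.64, and 11 of them were called lower. At 26032326 the 3 BicR arms read 1477 ± 158 RPM at 6 h and 812 ± 322 RPM at 24 h (SD, n = 3), and edgeR put the log2 change at -1.06 (SE 0.16, adjusted p = 0.00153). The LNCaP arms there read 809 ± 18.0 and 507 ± 47.7 RPM, a change of -0.69 (SE 0.16, adjusted p = 0.0471). Of the window's 42 other sites, 26 were called lower and 3 higher at 24 h in BicR. In LNCaP 17 were called lower and none higher, so much of the window moved the same way.

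Over all 172 sites, more were called for time, with 3 libraries at each hour, than for any agent, with 2 libraries per arm. In BicR 40 were higher and 44 lower at 24 h than at 6 h, where 13.5% of all sites were higher and 13.1% lower. In LNCaP 11 were higher and 30 lower, where 0.833% of all sites were higher and 1.81% lower. Both lines shared 11 of the risers (27.5% of the BicR list and 100% of the LNCaP list) and 26 of the fallers (59.1% and 86.7%), and no site was called in opposite directions. For the difference of the time change between the lines edgeR called none of the 172, as it called 0% of all sites. Before adjustment 39 of the 172 and 2160 of all 13213 sites passed 0.05. DESeq2 called 2 of the 172 lower, where it called 25 of all sites lower. Some of the 172 were called by edgeR when either BicR bicalutamide library was left out. The LNCaP count of 41 dropped to 6 without any 1 of its 4 libraries containing DHT and to 19 or 20 without a bicalutamide library, and rose to 62 without the BicR library with both agents at 6 h. Without that library the BicR counts were 27 higher and 47 lower.

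**Figure D3:**
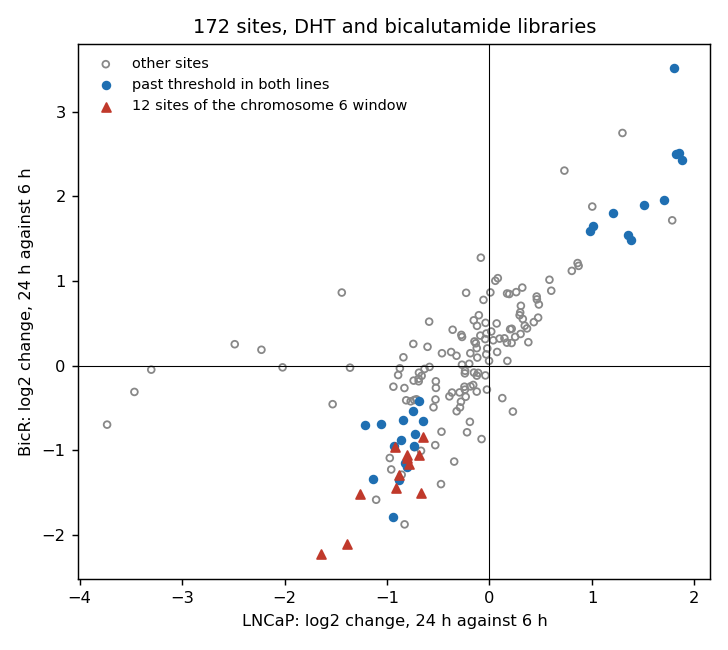
Each point is 1 of the 172 sites, with the fitted log2 change from 6 h to 24 h in the LNCaP arms with DHT, bicalutamide or both on the horizontal axis and in the BicR arms on the vertical axis. The 12 sites of the chromosome 6 window (triangles) lie at lower left, between -2.23 and -0.85 in BicR, and the 11 sites that rose in both lines lie at upper right.

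The 11 sites that rose in both lines included the fourth most abundant of the 172, on the plus strand of chromosome 9 at 80912042. Its 3 BicR arms read 299 ± 30.9 RPM at 6 h and 1154 ± 261 RPM at 24 h, which the fit puts at 1.80 (SE 0.21, adjusted p = 0.000477). Its LNCaP arms read 199 and 732 RPM with DHT, 202 and 296 with bicalutamide and 255 and 601 with both, at 6 h and 24 h. Of these 3 arms, bicalutamide alone was the lowest at 24 h and DHT alone the highest in LNCaP. The median over the 11 sites showed the same order: at 24 h it was 75.3 RPM with DHT, 50.4 with both and 22.4 with bicalutamide in LNCaP, whereas in BicR it was 64.0, 102 and 99.3 RPM. At 6 h those medians were 13.1, 21.0 and 11.5 RPM in LNCaP and 30.8, 26.3 and 20.3 RPM in BicR.

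The ethanol libraries, which had no part in that call, went up from 6 h to 24 h in BicR and down in LNCaP. The median of the 11 sites went from 29.3 RPM before treatment to 46.1 RPM at 6 h and 88.9 RPM at 24 h in BicR with ethanol, rising at every step for all 11. In LNCaP it was 14.8, 30.5 and 15.4 RPM; at all 11 both ethanol values were above the value before treatment, and the 24 h value was below that at 6 h. With 1 library per line and time this has no replicate check, and those 6 libraries chose the sites. The 26 sites that fell in both lines had ethanol medians of 66.1 and 59.2 RPM at 6 h and 24 h in BicR, lower at 24 h in 20 of 26, and of 35.4 and 28.6 RPM in LNCaP, lower at 24 h in 25 of 26.

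Turning to the hormone itself, 10 of the 172 sites rose and 3 fell with DHT against ethanol in BicR by edgeR's test, where 2.22% of all 13214 sites rose and 1.18% fell. In LNCaP 5 rose and none fell, where 0.121% of all sites rose. The ethanol libraries of both lines also chose the sites, for being high in BicR and low in LNCaP, so a fall against ethanol in BicR and a rise in LNCaP are partly given by the choice. The median log2 change over the 172 was -0.29 in BicR and 0.08 in LNCaP, against -0.01 and -0.01 over all sites. Above 0 with DHT in LNCaP were 57.6% of the 172 and 47.0% of all sites. A rise in BicR goes against that tilt and a rise in LNCaP goes with it. DHT against bicalutamide, described further on, uses no library that chose the sites, yet the 172 leaned the same way there. Above 0 were 30.2% of them in BicR and 55.2% in LNCaP, against 47.9% and 48.5% of all sites. All 5 sites called in LNCaP were also called in BicR.

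Those 5 sites lay at 3 loci: the plus strand of chromosome 19 at 51376694, the 3 neighbouring sites on the minus strand of chromosome 8, and the minus strand of chromosome 1 at 205633975. The chromosome 19 site is on the arm that carries the kallikrein family named above. In BicR it read 152 and 138 RPM with ethanol, 1151 and 1478 with DHT, 748 and 811 with bicalutamide and 537 and 1505 with both, at 6 h and 24 h. In LNCaP it read 40.5 and 32.2 RPM with ethanol, 306 and 319.8 with DHT, 63.9 and 39.9 with bicalutamide and 303 and 139 with both. Every agent thus raised it in BicR above both ethanol libraries, while in LNCaP the bicalutamide and ethanol libraries overlapped. The log2 change with DHT was 3.11 (SE 0.37, adjusted p = 0.00118) in BicR and 3.19 (SE 0.38, adjusted p = 0.0147) in LNCaP, 4 libraries in each comparison.

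On chromosome 8 the site at 23540447 was the most abundant of the 3. In BicR it read 94.5 and 81.4 RPM with ethanol, 627 and 555 with DHT, 443 and 240.4 with bicalutamide and 248 and 462 with both. In LNCaP it read 33.2 and 36.1 RPM with ethanol, 254 and 179 with DHT, 49.4 and 44.8 with bicalutamide and 164 and 90.8 with both. The DHT libraries did not overlap the ethanol libraries in either line, and the log2 change was 2.72 (SE 0.36, adjusted p = 0.00227) in BicR and 2.65 (SE 0.37, adjusted p = 0.0183) in LNCaP. The site at 23537636 read 28.5 and 24.5 RPM with ethanol and 214 and 194 RPM with DHT in BicR. In LNCaP it read 8.90 and 10.5 RPM with ethanol and 93.2 and 67.2 RPM with DHT, again without overlap. At 23537932 the BicR values were 14.4 and 11.4 RPM with ethanol and 96.1 and 88.8 RPM with DHT. The LNCaP values there were 5.04 and 5.69 RPM with ethanol and 45.4 and 32.8 RPM with DHT. The 3 starts therefore moved together within 2811 bp, and they share their neighbourhood and their libraries.

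The chromosome 1 site at 205633975 read 34.8 and 40.2 RPM with ethanol, 189.9 and 163 with DHT, 141 and 101 with bicalutamide and 109 and 170.1 with both in BicR. In LNCaP it read 17.3 and 15.7 RPM with ethanol, 72.7 and 61.6 with DHT, 17.4 and 12.8 with bicalutamide and 67.9 and 26.7 with both. The DHT change was 2.20 (SE 0.30, adjusted p = 0.00252) in BicR and 2.06 (SE 0.32, adjusted p = 0.0322) in LNCaP. For the difference between the lines in the DHT response, edgeR called none of the 172 and 0% of all sites. Before adjustment 10 of the 172 and 754 of all 13214 sites passed 0.05, and by DESeq2 0 of the 172 were called. The ethanol libraries that chose the sites enter this difference, so a lower response in BicR is partly given by the choice. Above 0 were 25% of the 172 and 50.7% of all sites.

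**Figure D4:**
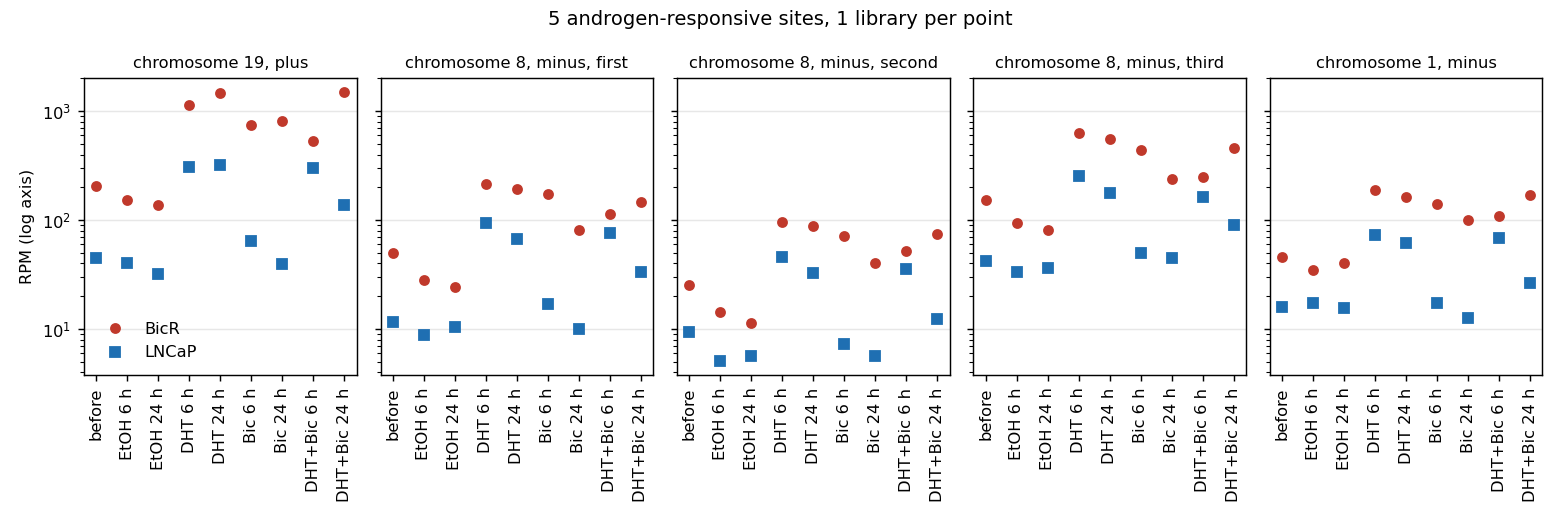
Each panel shows 1 of the 5 sites called with DHT in both lines: chromosome 19 at 51376694, chromosome 8 at 23537636, 23537932 and 23540447, and chromosome 1 at 205633975. Points are RPM (log axis) in single libraries of BicR (circles) and LNCaP (squares) before treatment and with ethanol (EtOH), DHT, bicalutamide (Bic) or both. BicR lies above LNCaP in every library pair, and bicalutamide alone lies above ethanol in BicR.

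The 5 other rises in BicR were smaller or at fainter sites. The minus strand of chromosome 1 at 2342274, one of the sites just inside the level threshold, read 8.19 and 10.0 RPM with ethanol, 35.9 and 50.4 with DHT, 26.4 and 17.9 with bicalutamide and 21.3 and 40.1 with both in BicR, a DHT change of 2.21 (SE 0.33, adjusted p = 0.00329); in LNCaP it read 4.30 and 3.67 RPM with ethanol and 12.1 and 12.9 RPM with DHT and was not called. The plus strand of chromosome 4 at 41361623 read 26.2 and 25.6 RPM with ethanol and 60.8 and 111 RPM with DHT in BicR, a change of 1.59 (SE 0.34, adjusted p = 0.0247). The others were on the minus strands of chromosome 2 at 180726046 and 208634629 and chromosome 3 at 179169248, with log2 changes of 1.28, 1.27 and 0.98. These last 3 were named after their values were seen.

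The 3 falls with DHT in BicR were on the minus strand of chromosome 18 at 65183956, the plus strand of chromosome 3 at 153839204 and the plus strand of chromosome 1 at 92470008. At 65183956 BicR read 125 and 134 RPM with ethanol, 53.4 and 81.1 with DHT, 84.3 and 99.1 with bicalutamide and 41.1 and 66.2 with both, and the log2 change with DHT was -0.996 (SE 0.20, adjusted p = 0.0195). LNCaP read 31.4 and 38.4 RPM with ethanol and 45.2 and 40.7 RPM with DHT there. These 3 falls go the way the choice of the sites tilts the comparison. At 153839204 BicR read 43.8 and 41.1 RPM with ethanol and 29.6 and 19.7 RPM with DHT, a change of -0.83 (SE 0.13, adjusted p = 0.00437), and LNCaP read 18.8 to 24.4 RPM in all 8 libraries of the 4 arms. At 92470008 BicR read 11.6 and 9.37 RPM with ethanol and 5.81 and 3.19 RPM with DHT, a change of -1.30 (SE 0.32, adjusted p = 0.0494). The count of 13 sites became 20 without the BicR ethanol library at 6 h, 8 or 7 without the BicR DHT library at 6 h or 24 h, and 22 without either BicR library with both agents. The LNCaP count of 5 became 0 or 1 without any 1 of the 4 LNCaP ethanol and DHT libraries.

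Bicalutamide alone raised 5 of the 172 sites in BicR and lowered none, where 0.159% of all sites rose. They were the same 5 sites at 3 loci that DHT raised in both lines. At 51376694 on chromosome 19 the log2 change with bicalutamide was 2.47 (SE 0.36, adjusted p = 0.0272), at 23537636 2.30 (SE 0.34, adjusted p = 0.0276), at 23537932 2.18 (SE 0.36, adjusted p = 0.0476), at 23540447 2.02 (SE 0.35, adjusted p = 0.0476) and at 205633975 1.76 (SE 0.30, adjusted p = 0.0476). These adjusted p-values lie near the threshold: the count of 5 became 0 without either BicR ethanol library, the BicR bicalutamide library at 6 h, either BicR DHT library or either LNCaP bicalutamide library, and 6 without the BicR bicalutamide library at 24 h. It became 1 or 2 without an LNCaP DHT or LNCaP ethanol library and 8 without either BicR library with both agents. In all of the 5, each of the 2 bicalutamide libraries was above each of the 2 ethanol libraries.

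In LNCaP bicalutamide changed none of the 172 sites by edgeR, where 0.00757% of all sites were called. Before adjustment 1 of the 172 and 256 of all 13214 sites passed 0.05, and by DESeq2 0 of the 172 were called. At 3 of the 5 sites above, the LNCaP bicalutamide and ethanol libraries overlapped; at 23537932 and 23540447 both bicalutamide libraries lay above both ethanol libraries, and at 23540447 the values were 33.2 and 36.1 RPM with ethanol and 49.4 and 44.8 RPM with bicalutamide. For the difference between the lines in the bicalutamide response edgeR called none of the 172 and 0% of all sites. Before adjustment 11 of the 172 and 415 of all 13214 sites passed 0.05. By DESeq2 1 of the 172 was called higher, where 8 of all sites were. The choice enters this difference through the ethanol libraries as well, with 37.8% of the 172 and 49.3% of all sites above 0. The responses of the lines to bicalutamide are therefore not shown to differ.

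DHT set directly against bicalutamide uses only libraries that did not choose the sites. In LNCaP 5 of the 172 were higher with DHT, where 0.144% of all sites were: the chromosome 19 site, 23537636 and 23537932 on chromosome 8, 205633975 on chromosome 1, and the plus strand of chromosome 3 at 153943621. The log2 differences were 2.67 (SE 0.36, adjusted p = 0.0245) at 51376694, 2.62 (SE 0.35, adjusted p = 0.0245) at 23537636, 2.61 (SE 0.39, adjusted p = 0.0319) at 23537932 and 2.19 (SE 0.33, adjusted p = 0.0322) at 205633975. The site at 153943621 read 169.6 and 176 RPM with DHT and 87.0 and 70.2 RPM with bicalutamide in LNCaP, a difference of 1.16 (SE 0.18, adjusted p = 0.0449), and 122 to 264 RPM in all 9 BicR libraries. In BicR none of the 172 was called, where 0.0151% of all sites were. Before adjustment 23 of the 172 and 776 of all 13213 sites passed 0.05, and by DESeq2 0 of the 172 were called. The median log2 difference of the 172 in BicR was -0.15, with 120 below 0, against -0.01 over all sites. At 51376694 the BicR difference was 0.62 (SE 0.33, adjusted p = 0.9). For the difference between the lines edgeR called none of the 172 and 0% of all sites. Before adjustment 27 of the 172 and 539 of all 13213 sites passed 0.05. DESeq2 called 1 of the 172 lower, where it called 3 of all sites lower. The LNCaP count became 0 without any 1 of the 4 LNCaP DHT and bicalutamide libraries or either BicR DHT library, 2 without an LNCaP library with both agents, and 8 without a BicR library with both agents; the BicR count became 5 without BicR bicalutamide at 6 h.

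DHT with bicalutamide was compared with ethanol after the data were seen. In BicR 6 sites rose and 11 fell, where 1.94% of all sites rose and 0.855% fell; the 6 were the 5 sites above and 2342274 on chromosome 1. The falls are partly given by the choice, as with DHT: the median log2 change of the 172 was -0.38, with 138 below 0. The median over all sites was 0.004, and 19.8% of the 172 were above 0 against 50.5% of all sites. The falls included 92470008 on chromosome 1 (log2 -2.003, SE 0.35, adjusted p = 0.012), 42276805 on the minus strand of chromosome 7 (log2 -1.34, SE 0.29, adjusted p = 0.0322), 65183956 on chromosome 18 (log2 -1.29, SE 0.21, adjusted p = 0.00766) and 153839204 on chromosome 3 (log2 -1.23, SE 0.14, adjusted p = 0.00114). At 42276805 BicR read 10.7 and 12.2 RPM with ethanol and 5.21 and 3.87 RPM with both agents. The count of 17 became 11 without either LNCaP library with both agents, 9 without BicR ethanol at 24 h, 20 without the BicR library with both agents at 6 h and 38 without the BicR library with both agents at 24 h. In LNCaP none was called, where 0.00757% of all sites were. Before adjustment 11 of the 172 and 830 of all 13214 sites passed 0.05. DESeq2 called 6 of the 172 higher, where it called 19 of all sites higher. Some of the 172 were called by edgeR without a BicR library with both agents. The choice tilts this comparison upward, with 70.3% of the 172 and 49.2% of all sites above 0.

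Adding bicalutamide to DHT changed none of the 172 in BicR, where 0.341% of all sites were called, nor in LNCaP, where 0% were. Before adjustment 30 of the 172 in BicR and 3 in LNCaP passed 0.05, where 1176 and 259 of all 13213 sites did. DESeq2 called 0 of the 172 in each line. The BicR count was also 0 without the 6 h library with both agents. In BicR, 2 sites were called without a bicalutamide library and 38 (4 higher, 34 lower) when the BicR library with both agents at 24 h was left out, which leaves the 6 h library that stood apart to stand for the arm.

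The R1881 course is a second table of LNCaP libraries that played no part in choosing the sites. Of the 172 sites, 97 shared their name with a cluster there (56.4%, against 64.3% of all sites), 95 of which passed the filter on low counts, and 36 more fell inside a cluster of another name. Without a vehicle library after 0 h, R1881 and time in culture cannot be told apart. None of the 95 was called at 3, 6 or 12 h, where 0%, 0% and 0.231% of all 15999 clusters were. Unadjusted, 5, 10 and 9 of the 95 passed 0.05, where 269, 2449 and 996 of all clusters did. By DESeq2 the counts were 0, 0 and 1, the last being higher at 12 h, where 94 of all clusters were. At 18 h, 1 site was higher, where 0.713% of all clusters were: the minus strand of chromosome 14 at 100841811, at 5.54 and 3.31 RPM at 0 h and 25.9 and 37.3 RPM at 18 h, named after its values were seen. Its adjusted p by edgeR was 0.0498, close to the threshold. In the 18 h library of replicate 1, which read 25.9 RPM, 3 tags were worth 19.4 RPM. DESeq2 called 5 higher and 2 lower at 18 h, where it called 342 of all clusters higher and 143 lower. With the replicate number as a block, 27 of the 95 (14 higher, 13 lower) were called at 1 or more of these 4 times, where 15.4% of all clusters were. The single call at these early times was lost without any 1 of the libraries at 0, 3, 12 and 48 h or the 18 h library of replicate 2, and 4 or 5 sites were called without the 18 h library of replicate 1 or either 6 h library.

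At 48 h 8 of the 95 were higher and none lower by edgeR, where 1.39% of all clusters were higher and 0.494% lower. At 72 h 4 were higher and 3 lower, where 1.51% and 0.988% were. Below those calls most sites sat lower than at 0 h: the median log2 change of the 95 was -0.98 at 48 h and -1.23 at 72 h, with 65 of 95 below 0 at each time, against medians of -0.02 and 0.01 over all clusters. At each time 31.6% of the 95 were above 0, against 49.0% of all clusters at 48 h and 50.5% at 72 h. The 292 sites chosen by the reverse rule, higher in LNCaP, also had medians below 0, at -0.93 and -0.85 for the 182 of them tested, so the shift is not shown to belong to sites higher in BicR. Libraries with the same replicate number shared part of their deviation from the mean of their time. With that number as a block, 15 sites were higher and 33 lower at 48 h (4.96% and 3.58% of all clusters). At 72 h 14 were higher and 41 lower with it (6.28% and 5.89%). The R1881 changes and adjusted p-values of single sites below come from the fit without that block and so leave the shared deviation out.

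The largest called rises at 48 h were at sites that also rose with time in the other table. The plus strand of chromosome 15 at 41245668 read 8.70 and 7.71 RPM at 0 h and 156 and 61.0 RPM at 48 h in replicates 1 and 2, which the fit puts at 3.75 (SE 0.79, adjusted p = 0.0269). The minus strand of chromosome 9 at 2621385 read 1.58 and 2.75 RPM at 0 h and 27.5 and 23.4 RPM at 48 h, a change of 3.46 (SE 0.67, adjusted p = 0.0179). The minus strand of chromosome 19 at 47288070 rose from 7.12 and 12.9 to 118 and 78.2 RPM, a change of 3.28 (SE 0.71, adjusted p = 0.0308). The replicates at 48 h did not overlap those at 0 h, which was a condition for naming these sites. Of the 11 sites that rose from 6 h to 24 h in both lines, 6 were tested here by name; all 6 had changes above 0 at 48 h (median 3.10) and 4 were called. By position, the plus strand of chromosome 20 at 361670, another of the 11 and named after its values were seen, read 18.2 and 20.1 RPM at 0 h and 286 and 364 RPM at 48 h.

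The fourth was the plus strand of chromosome 4 at 41361623, at 7.91 and 20.7 RPM at 0 h and 125 and 118 RPM at 48 h (log2 3.09, SE 0.64, adjusted p = 0.0244), a site that DHT also raised in BicR. Of the 10 sites that rose with DHT in BicR, 9 were tested here by name and 2 were called higher at 48 h (22.2% of the 9 and 25% of the 8): this site and 2342274 on chromosome 1, at 31.6 and 41.3 RPM at 0 h and 312 and 279 RPM at 48 h (log2 3.06, SE 0.57, adjusted p = 0.0143). The chromosome 19 start had a cluster there only by position, under another name, which read 376 and 201 RPM at 0 h and 2002 and 1141 RPM at 48 h, a change of 2.49 (SE 0.60, adjusted p = 0.0476). On chromosome 8, 23540447 read 94.2 and 30.9 RPM at 0 h, 394 and 239.5 at 3 h and 324 and 175 at 48 h. Both replicates were above their 0 h library at each of those times, but the change at 48 h did not pass edgeR's test without the replicate block, at 2.05 (SE 0.54, adjusted p = 0.0741). The chromosome 1 site at 205633975 went from 131 and 54.5 RPM at 0 h to 385 and 531 RPM at 48 h (log2 2.37, SE 0.87, adjusted p = 0.226).

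**Figure D5:**
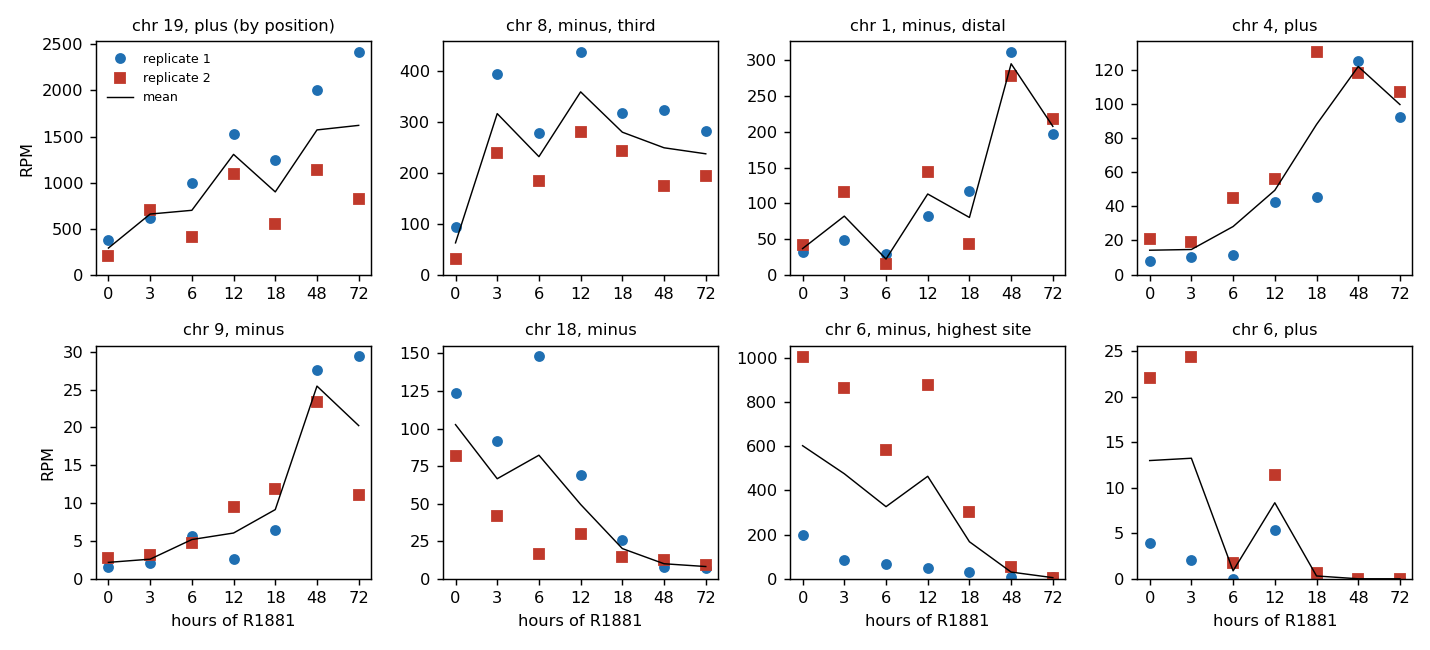
Each panel shows RPM (linear axis from 0) in the 2 LNCaP replicates at 0 to 72 h of R1881, with the mean as a line; the hours are evenly spaced, not to scale. The upper row and the chromosome 9 panel (2621385) show sites at higher RPM at 48 h than at 0 h in both replicates, and the other panels (65183956 on chromosome 18, 26032326 and 27782799 on chromosome 6) show sites at lower RPM. The upper row shows, in order, 51376694 on chromosome 19, 23540447 on chromosome 8, 2342274 on chromosome 1 and 41361623 on chromosome 4.

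The 3 sites called lower at 72 h, named after their values were seen, were 65183956 on chromosome 18, the plus strand of chromosome 12 at 109535401 and the plus strand of chromosome 6 at 27782799. The chromosome 18 site read 123 and 81.8 RPM at 0 h and 7.10 and 9.21 RPM at 72 h, a change of -3.52 (SE 0.78, adjusted p = 0.0292), and it was also lower with DHT in BicR. At 109535401 the values were 3.96 and 19.3 RPM at 0 h and 0 and 0 RPM at 72 h, and at 27782799 they were 3.96 and 22.0 RPM and then 0 and 0 RPM; a fitted fold to 0 tags is no bound and is left out.

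In the chromosome 6 window 9 of the 12 sites were tested by name, and all 9 had changes below 0 at 48 h, with a median of -2.60. None passed edgeR's test at 48 h (lowest adjusted p = 0.0523), and 7 were called lower with the replicate block. Before adjustment 31 of all 95 sites passed 0.05 at 48 h, where 1967 of all 15999 clusters did. DESeq2 called 2 of the 95 lower there, where it called 111 of all clusters lower. At 26032326 replicate 1 read 199, 50.5, 7.64 and 7.10 RPM at 0, 12, 48 and 72 h, and replicate 2 read 1006, 878, 53.2 and 3.22 RPM. The replicates differed widely at 0 h, and each was lowest at 72 h. The 48 h count of 8 became 0 or 1 without any 1 of the 4 libraries at 0 h and 48 h, 5 without a 12 h library, 13 when replicate 2 lost both its 6 h and its 18 h library, and 18 without the 4 shallowest libraries. The 72 h count of 7 became 0 to 2 without a library at 0 h or 72 h, 4 without 48 h of replicate 2, 14 and 11 without a library at 6 h or 18 h, 20 when replicate 2 lost both, and 23 without the 4 shallowest.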

How the data were processed

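CAGE libraries of 2 human prostate cancer lines were analysed from 2 deposited tables, 18 LNCaP and BicR libraries and 14 R1881 libraries. Per the file headers, each gives the authors' raw tag counts per start site and RPM; the deposited RPM values are the counts times 1 factor per library, and the deposited tags were 75.6 to 86.1% of the total which that factor implies in the LNCaP and BicR table. Per the submitters' processing notes the build was hg19; aligner, clustering and filters are not given in the sources used here.

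The members and lists were chosen with earlier results of these data known. Membership used RPM. Tests used the counts: edgeR 4.0.16 in R 4.3.3, TMM, filterByExpr with a minimum count of 10, the quasi-likelihood F test and Benjamini-Hochberg adjustment over all sites at 0.05. One fit held the 16 libraries at 6 h and 24 h, with a coefficient per line and arm and a time term per line; a fit of the 12 libraries without ethanol served comparisons independent of the choice; another held 14 R1881 libraries with a coefficient per time. SE is the log2 change over the square root of F. The calling script was tested on simulated data. R1881 replicate numbers were checked: after subtracting each time's mean, libraries with 1 number correlated across 9911 sites at 0.176 to 0.643 in 21 of 21 pairs of times (median 0.376). Libraries with the same number thus shared part of their deviation. Replicate 1 had fewer tags than replicate 2 at every time, and whether depth gives this correlation was not tested. Alternatives were DESeq2 1.42.0, library totals only, other filters, no time term, each library left out, stricter membership and matching by position.

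Named sites were the 6 highest in BicR, the 6 largest ratios (LNCaP libraries under 3 tags set to 3 tags), those nearest each threshold, up to 4 called sites each way per comparison with 1 direction at both times, at 48 h of R1881 those whose replicates did not overlap, the largest neighbourhoods and the divergent pairs; other names are said to be chosen after their values were seen, as were the time comparison's. Floors and thresholds in tags cover counting error only.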

Additional observations from a re-analysis of the deposited data

How the results depend on the processing

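A stricter choice kept fewer sites, 20 at 4 times and 99 at 20 RPM, and leaving 1 of the 6 libraries out of the means gave 173 to 217, of which 131 to 168 were among the 172. Choosing on TMM-scaled values gave 198 sites, with all 172 among them. Links of 1000 bp gave 3 neighbourhoods with more than 1 site, in place of 6. Among the sites at 4 times, 17 were called in the unused libraries, 2 with DHT, 1 with bicalutamide and 2 with both agents in BicR, 1 with DHT in LNCaP and 1 for DHT against bicalutamide there, and 1 and 0 for time in BicR and LNCaP. Among sites whose rule libraries did not overlap, 4 were called at 48 h of R1881 and 0 before it.

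DESeq2 called 8 with DHT in LNCaP, 8 for DHT against bicalutamide there, 6 with both agents there, 1 for the line difference with bicalutamide, 1 for that of DHT against bicalutamide, 2 for that of time, 15 at 72 h of R1881 and 7 at earlier times. Over all sites it called 52 higher with DHT in LNCaP, 40 higher for DHT against bicalutamide there and 19 higher with both agents there. At 72 h it called 271 of all clusters higher and 202 lower. Without the time term the counts were 6 with DHT, 0 with bicalutamide and 3 with both agents in BicR, and 1 with DHT and 0 for DHT against bicalutamide in LNCaP. The 10 RPM filter left 2 with bicalutamide in BicR. With the replicate block 48 were called at 48 h, 55 at 72 h and 27 at earlier times; without the 4 shallowest libraries 18, 23 and 11. With no filter beyond 1 tag, 11 were called at 72 h and 3 earlier, and with library totals only 0 earlier. The cause of these moves was not tested.

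Leaving out single libraries, after which an arm's lone library is assumed to vary like the rest, gave 7 to 22 with DHT in BicR, 0 to 6 in LNCaP, 0 to 8 with bicalutamide in BicR, 9 to 38 with both agents in BicR, 0 to 5 in LNCaP, 72 to 132 for BicR over LNCaP, 0 to 5 for DHT against bicalutamide in BicR, 0 to 8 in LNCaP, 0 to 38 for adding bicalutamide to DHT in BicR, 63 to 89 for time in BicR, 6 to 62 in LNCaP, 0 to 17 for its line difference, 0 to 1 for that of DHT against bicalutamide, 0 to 11 at 48 h, 0 to 14 at 72 h and 0 to 5 earlier; with the 6 h and 18 h libraries of R1881 replicate 2 both left out, it was 13 at 48 h and 20 at 72 h.

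Of 664 refits of the 35 named site and comparison pairs, none reversed, 504 kept the call and 160 lost it. Depth limits the R1881 table: at 18 h 3 tags were worth up to 19.4 RPM.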
